A study of Mus musculus with 5 samples.

Results

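The Myc transcription factors and the genes that build ribosomes were followed in hematopoietic stem cells (HSCs) of mouse bone marrow, split by the surface integrin CD11A. The set was a fixed list of 40 genes, drawn up by name when earlier results of these data were already known. It comprised 7 genes of the Myc network, 31 ribosome biogenesis genes and the Myc targets Odc1 and Nme1. Of these, 39 were measured by a probeset that names no other gene, out of 18193 genes named in this way on the array. The probeset of the missing gene, Mrto4, also names 2 pseudogenes. Each gene is given by its probeset with the highest mean over the 5 arrays, on the deposited log2 scale, where 1 unit is a doubling.

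HSCs were sorted from bone marrow of male C57/Bl6 mice by the phenotype Lin- KIT+ SCA-1+ FLK2- CD150+ CD34- CD27+ EPCR+, and were divided into CD11A- cells (3 arrays) and CD11A+ cells (2 arrays). The labels name no treatment or transgene for any group. According to the labels, the sorts were made on 3 days. Day A gave CD11A- replicate 2 with CD11A+ replicate 1, from mice aged 8 to 12 weeks. Day B gave CD11A- replicate 3 with CD11A+ replicate 2, from mice aged 10 weeks, and day C, with mice aged 6 weeks, gave only CD11A- replicate 1. Each array held amplified RNA of 1011 to 2293 cells from 1 to 2 mice, so differences are between sorted pools, and a change in the kinds of cells sorted cannot be told apart from a change within cells. Array medians lay between 5.55 and 5.62, and pairs of arrays correlated at 0.947 to 0.988 over all probesets. Itgal, which encodes CD11A, had log2 levels of 5.15, 5.43 and 5.27 in CD11A- replicates 1 to 3, and of 8.49 and 5.67 in CD11A+ replicates 1 and 2. Its level was thus higher in CD11A+ HSCs on both days, by 3.06 on day A but by only 0.40 on day B. The level of 5.67 in CD11A+ replicate 2 lay near the array medians, so Itgal checks the label only weakly on day B. In the limma fit used below, its difference of 1.80 (standard error 0.77) had an unadjusted p of 0.059. Itgal thus did not pass the adjusted threshold applied to the gene set. Transcripts of other gate markers did not all match the surface gate. Those of Cd34 and Flt3, whose proteins were gated as negative, were above the array medians in CD11A- HSCs too. Cd34 had 9.28 to 9.76 in CD11A- HSCs, and 11.07 and 9.87 in CD11A+ replicates 1 and 2. Slamf1, which encodes CD150, had 9.45 to 9.75 in CD11A- HSCs, and 9.24 and 7.91 in CD11A+ HSCs. Procr, which encodes EPCR, had its lowest level, 10.33, in CD11A+ replicate 1, against 11.64 to 12.86 elsewhere. Flt3, which encodes FLK2, had 7.68 to 8.83 in CD11A- HSCs, and 9.38 and 8.79 in CD11A+ replicates 1 and 2. Kit and Cd27 differed less, with mean differences of 0.10 and -0.18.

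Myc and its relatives Mycn and Mycl are transcription factors that promote cell growth. They bind DNA together with Max, at the E-box CACGTG, and Mxd1, Mxd4 and Mxi1 compete with them for Max and repress the same sites. Among the best known targets of Myc are the genes for ribosome production, the costliest synthesis of a growing cell. Ribosomal RNA is transcribed by RNA polymerase I in the nucleolus, is modified under the guidance of small nucleolar RNPs (snoRNPs), and is cut and folded with ribosomal proteins by a large set of assembly factors. HSCs at rest are known for a low rate of protein synthesis, and in mice both Myc and Mycn act in their maintenance and exit to progenitors.

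A window from 250 bases before to 50 after the annotated start was at hand for 35 of the 40 listed genes, from RefSeq on GRCm38.p6. Bop1, Fbl, Npm1, Rrp12 and Myc were not among them. The E-box CACGTG, which reads the same on both strands, stood in the window of 9 of the 35 genes (25.7%), against 2187 of 27025 genes in the whole table (8.09%). Those 9 were Max, Mxd4, Rrn3, Wdr43, Utp20, Tsr1, Nop2, Pes1 and Nme1. Before the start itself, the share was 4 of 35 (11.4%), against 6.86% of all genes. A match of letters is no evidence of binding, which was not measured. The 250 bases before the start of those 4 genes are shown as the sequences in which a Myc and Max site could be read directly. Capitals mark CACGTG, and each runs 5′ to 3′ on the strand of the gene.
Nme1: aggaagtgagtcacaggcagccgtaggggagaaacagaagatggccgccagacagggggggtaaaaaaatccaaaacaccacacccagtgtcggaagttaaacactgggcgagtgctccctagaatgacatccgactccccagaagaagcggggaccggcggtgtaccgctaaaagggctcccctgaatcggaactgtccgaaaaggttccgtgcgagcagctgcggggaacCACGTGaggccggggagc
Rrn3: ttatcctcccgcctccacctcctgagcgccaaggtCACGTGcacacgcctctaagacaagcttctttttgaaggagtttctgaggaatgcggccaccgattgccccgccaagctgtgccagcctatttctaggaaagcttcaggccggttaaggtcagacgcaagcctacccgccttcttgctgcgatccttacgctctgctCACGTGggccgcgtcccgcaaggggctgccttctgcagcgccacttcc
Nop2: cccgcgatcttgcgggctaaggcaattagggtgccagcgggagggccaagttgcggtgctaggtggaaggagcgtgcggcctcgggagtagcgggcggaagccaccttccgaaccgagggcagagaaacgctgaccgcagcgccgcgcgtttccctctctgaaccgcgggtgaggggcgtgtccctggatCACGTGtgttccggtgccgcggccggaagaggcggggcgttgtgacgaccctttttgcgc
Mxd4: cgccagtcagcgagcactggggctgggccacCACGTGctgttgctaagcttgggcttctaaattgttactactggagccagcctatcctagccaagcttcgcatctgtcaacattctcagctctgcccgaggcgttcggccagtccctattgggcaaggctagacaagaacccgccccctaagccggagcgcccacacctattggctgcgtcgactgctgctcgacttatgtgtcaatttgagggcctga
The Nme1 stretch was chr11:93968273-93968522 on the minus strand, from 1 of the 2 windows of this gene, with 12 bases between the E-box and the start. Rrn3 lay at chr16:13780449-13780698 on the plus strand and held 2 copies, with 209 and 42 bases between them and the start. Nop2 was read from chr6:125131633-125131882 on the plus strand, with 54 bases between its copy and the start. For Mxd4 the stretch was chr5:34187711-34187960 on the minus strand, with 213 bases between the copy and the start.

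The first question was whether the 39 genes differed between the subfractions over all arrays. No gene of the set passed an adjusted p of 0.05 in limma, where all had an adjusted p of 1.00, and 0% of the 45037 probesets fitted did so. The smallest unadjusted p was 0.128, for Odc1. In this fit without a block, none of the 39 had an unadjusted p under 0.05, against 4.26% of all probesets and 5.06% of all named genes. The mean was higher in CD11A+ HSCs for 28 genes and lower for 11, where 48.3% of all named genes were higher. These differences were small, with a median of 0.09, against -0.01 over all named genes and -0.06 over the 6498 named genes with a mean of 8 or more, a background chosen after the values were seen. For 34 of the 39, the difference was smaller than the range of the 3 CD11A- arrays. The median rested on single arrays. Without CD11A+ replicate 1 it was -0.04 and 16 genes had the higher mean in CD11A+ HSCs, and without CD11A+ replicate 2 it was 0.24. The sort days are therefore given separately below for each group of genes, with 1 array against 1 on each day and no test.

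On day A 30 of the 39 genes were higher in CD11A+ HSCs and 9 lower, with a median difference of 0.25, where 51.1% of all named genes were higher and their median was 0.02. On day B 14 genes were higher, 24 lower and 1, Nop56, equal, with a median of -0.10, where 53.6% of all named genes were lower and their median was -0.03. The 2 days thus had medians of opposite sign. In all, 18 genes were higher in CD11A+ HSCs on the first of these days but lower on the other, where 25.0% of all named genes had that pattern. A further 11 were higher on both days, against 25.3% of all named genes, and 6 lower on both, against 28.0%. CD11A+ replicate 1 held the highest level for 19 of the 39 genes, against 27.2% of all named genes. CD11A+ replicate 2 was highest for 9 genes, against 18.2%, and lowest for 12, against 25.5%. The difference between the days was not tested, since each day holds 1 array of each subfraction.

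**Figure D1:**
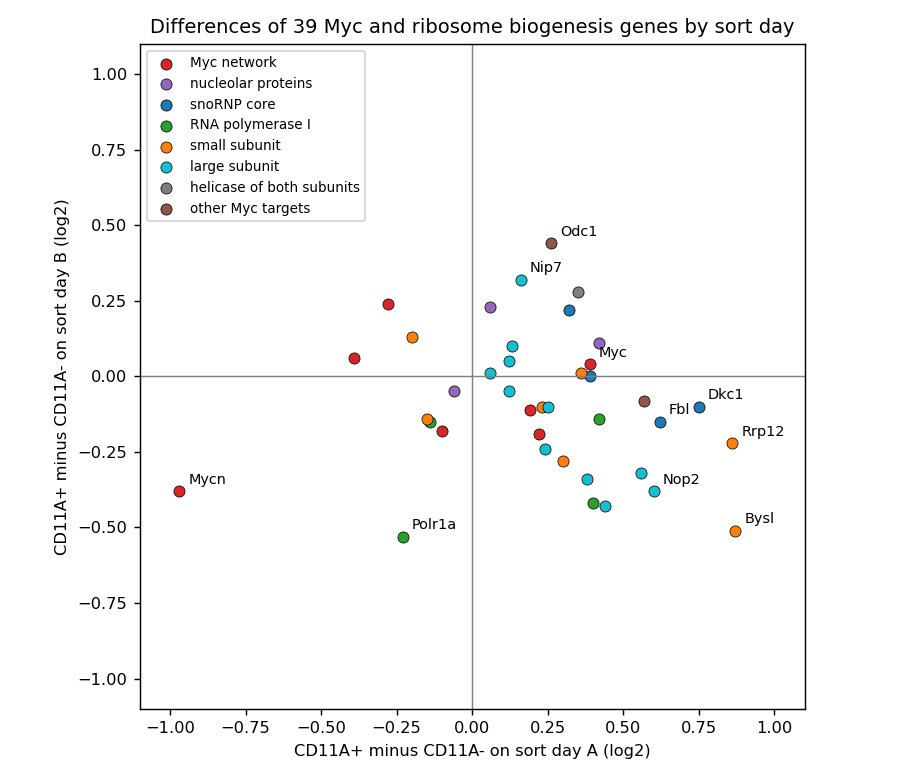
Each point is 1 of the 39 measured genes, with the log2 difference between CD11A+ and CD11A- HSCs on sort day A on the horizontal axis and on day B on the vertical axis, coloured by role. The lower right quadrant holds 18 genes with a positive difference on day A and a negative one on day B, Bysl, Rrp12 and Nop2 among them, and Mycn lies far to the left with -0.97 on day A and -0.38 on day B.

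Within the Myc network, Myc and Mycn had differences of opposite sign. Myc, the family member best known from dividing blood cells, had log2 levels of 9.87, 10.84 and 10.17 in CD11A- replicates 1 to 3, and of 11.23 and 10.21 in CD11A+ replicates 1 and 2. Only CD11A+ replicate 1 lay above all CD11A- arrays, by less than those arrays differed among themselves, and the second CD11A+ array lay within their range. In limma the difference was 0.43 with a standard error of 0.41 and an adjusted p of 1.00, with 0.39 on day A and 0.04 on day B, and it was -0.08 without CD11A+ replicate 1. Both arrays of day A had higher Myc than all arrays of the other days.

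Mycn, which can stand in for Myc in stem cells, had levels of 11.90, 11.81 and 12.39 in CD11A- HSCs and of 10.84 and 12.01 in CD11A+ HSCs. CD11A+ replicate 1 was the lowest array, while CD11A+ replicate 2 lay inside the CD11A- range and below the CD11A- array of its own day. The difference of -0.61 (standard error 0.39, adjusted p = 1.00 from limma) was the largest in size among the 39 genes, with -0.97 on day A and -0.38 on day B. Without CD11A+ replicate 1 it was -0.02. With sort day as a fixed block in limma it was -0.68, with an unadjusted p of 0.0318 and an adjusted p of 0.70. That adjusted p was the lowest that any of the 39 reached in that fit, which leaves 1 residual degree of freedom. A second Mycn probeset had -0.82 on day A and -0.56 on day B, and the third 0.08 and -0.01.

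Mycl, the third family member, had levels of 5.44, 4.95 and 5.03 in CD11A- and of 4.56 and 5.09 in CD11A+ HSCs. Its lowest level was again in CD11A+ replicate 1, and the difference of -0.32 (standard error 0.26) came with -0.39 on day A and 0.06 on day B. Its other probesets had -0.01 and 0.31, and the mean of all 3 had no difference to 2 decimals. It was also the only gene of the set left out by a filter that asks for a log2 value of 6 on at least 2 arrays. Max, the shared partner, varied little, with 6.69, 6.51 and 6.90 in CD11A- and 6.73 and 6.71 in CD11A+ HSCs. Its mean difference was 0.02 (standard error 0.19), and both CD11A+ arrays lay within the CD11A- range.

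The Max-binding repressors had no common direction. Mxd1, which is known from differentiating cells, had levels of 9.17, 8.94 and 9.72 in CD11A- and of 8.66 and 9.96 in CD11A+ HSCs. The CD11A+ arrays were thus its lowest and its highest, and both arrays of day B exceeded the other 3. Mxd4, one of the genes with an E-box before its start, had 9.02, 9.27 and 8.95 in CD11A- and 9.46 and 8.84 in CD11A+ HSCs, so that here too the CD11A+ arrays were the extremes, in the reverse order. Mxi1 had 8.99, 9.18 and 8.64 in CD11A- and 9.08 and 8.46 in CD11A+ HSCs. It was the lower in CD11A+ HSCs on both days, by -0.10 and -0.18, differences smaller than its CD11A- range of 0.54. The 3 mean differences were 0.03 (standard error 0.44), 0.07 (0.25) and -0.17 (0.27), all with an adjusted p of 1.00 from limma. Their other probesets had differences of both signs, from -0.16 to 0.32. Over the 7 genes of the network, the median difference was 0.02, with -0.10 on day A and -0.11 on day B.

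**Figure D2:**
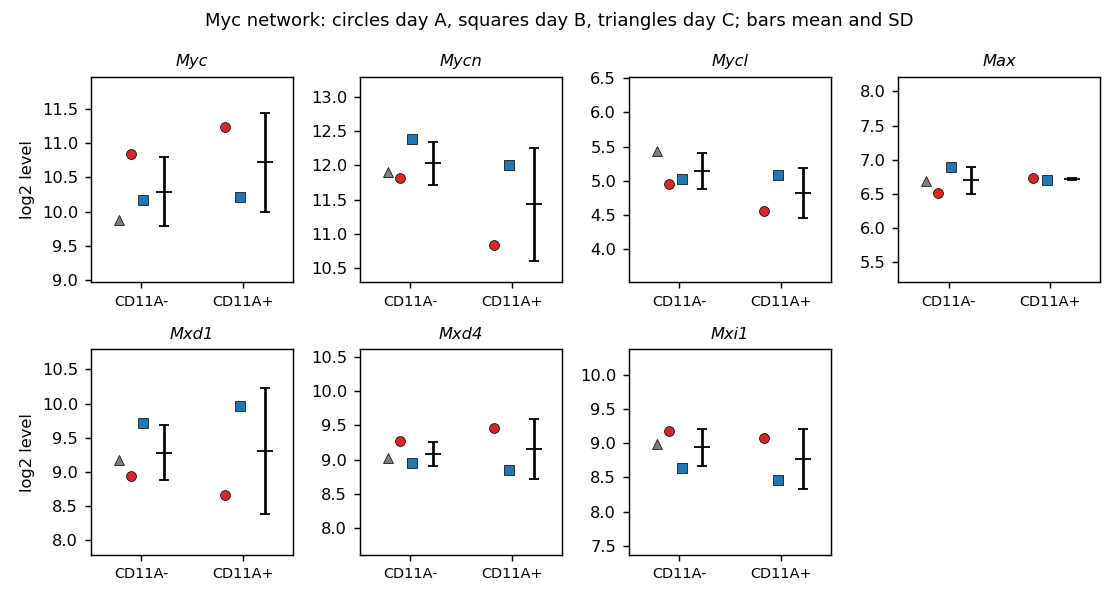
Log2 levels of the 7 Myc network genes on each array, by subfraction, with circles for sort day A, squares for day B and triangles for day C, and with bars for the mean and SD (n = 3 CD11A-, n = 2 CD11A+). Every panel spans the same number of log2 units, and in Mycn the CD11A+ circle at 10.84 stands below all other arrays.

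The large nucleolar proteins and core proteins of the snoRNPs were next. Nolc1, a chaperone of snoRNPs, had levels of 8.48, 8.55 and 9.13 in CD11A- and of 8.97 and 9.24 in CD11A+ HSCs. The groups overlapped through CD11A- replicate 3, and the difference was 0.38 (standard error 0.26), with 0.42 on day A and 0.11 on day B. Its 2 other probesets had -0.54 and -0.13 on day B, so the direction on that day depended on the probeset. Ncl encodes nucleolin, an abundant nucleolar RNA-binding protein. Its levels were 12.08, 11.80 and 12.47 in CD11A- and 11.86 and 12.70 in CD11A+ HSCs, and in both subfractions the day B array was the highest. The difference was 0.16 (standard error 0.33), and it was -0.26 without CD11A+ replicate 2. Of its 4 other probesets, 3 had negative differences, the lowest -0.37. Npm1, nucleophosmin, was among the most even genes, with all 5 arrays within 0.15.

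The 4 snoRNP core proteins in the set were all higher in CD11A+ HSCs on day A, by 0.32 to 0.75. On day B their differences ran from -0.15 to 0.22. Nhp2, Nop10 and Gar1, core proteins outside the set, had 0.61, 0.14 and 0.45 on day A. On day B they had 0.11, -0.13 and 0.05. Fbl, fibrillarin, methylates ribosomal RNA. It had 10.82, 10.89 and 11.39 in CD11A- and 11.51 and 11.24 in CD11A+ HSCs, a difference of 0.34 (standard error 0.24). The day A difference of 0.62 and the day B difference of -0.15 had the same signs, 0.77 and -0.27, on its other probeset. Nop58, a scaffold of the same particles, had 10.84, 10.42 and 11.23 in CD11A- and 10.74 and 11.45 in CD11A+ HSCs. It was the snoRNP gene with the largest positive difference on day B, 0.22, but its CD11A- arrays alone spanned 0.81. Dkc1, the pseudouridine synthase dyskerin, differed by 0.75 on day A and by -0.10 on day B, and Nop56, the partner of Nop58, by 0.39 and 0.00. The difference on day A was also positive on the 2 other probesets of Dkc1, 0.55 and 0.67, and on the other one of Nop56, 0.67. On day B these probesets had 0.03 and 0.11 for Dkc1 and -0.21 for Nop56, so that the direction of Dkc1 on that day depended on the probeset.

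On their brightest probesets, the 4 genes of RNA polymerase I transcription in the set were all lower in CD11A+ HSCs on day B, by -0.14 to -0.53. Further subunits of this polymerase, given under the other observations, had differences of both signs on that day. On day A the 4 genes divided. Ubtf, which opens the ribosomal DNA, had 9.78, 9.50 and 10.39 in CD11A- and 9.92 and 10.25 in CD11A+ HSCs. Both CD11A+ arrays lay within the CD11A- range, and the difference was 0.20 (standard error 0.30), with 0.42 on day A. Its dimmer probeset had -0.23 on that day. Rrn3, which brings the polymerase to the promoter in response to growth signals, had 8.06, 8.47 and 8.07 in CD11A- and 8.33 and 7.92 in CD11A+ HSCs. Its difference was -0.08 (standard error 0.23), with -0.14 on day A and -0.15 on day B. Of the polymerase subunits, Polr1a had the widest CD11A- range of the 39 genes, 1.58, owing to a level of 8.77 in replicate 3 against 7.19 and 7.53 in the other two. Its day B difference of -0.53 was the lowest of the set on that day. The next brightest Polr1a probeset had no high replicate 3, with 7.53, 7.92 and 7.59 in CD11A- HSCs. It had 0.23 on day A, where the brightest had -0.23, and -0.25 on day B. For Ubtf and Polr1a the direction on day A thus depended on the probeset. Polr1b had 0.40 on day A and -0.42 on day B.

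Of the 7 assembly factors of the small subunit, 5 were higher on day A and 2 on day B. Rrp9, a protein of the snoRNP that starts the cutting of small-subunit RNA, had 8.19, 8.21 and 8.40 in CD11A- and 8.57 and 8.41 in CD11A+ HSCs. The 2 groups did not overlap, but the day B arrays differed by only 0.01. The difference was 0.22 (standard error 0.18), with p = 0.2 in a two-sided exact permutation test, which ignores sort day. Rrp12, which serves the export of pre-ribosomes, had 6.19, 6.70 and 6.09 in CD11A- and 7.56 and 5.87 in CD11A+ HSCs. The CD11A+ arrays were its highest and its lowest, and its overall range of 1.69 was the widest of the set. The difference was 0.39 (standard error 0.51), and it was -0.46 without CD11A+ replicate 1 and 1.23 without CD11A+ replicate 2. Bysl, another late factor of the small subunit, behaved alike, with 7.85, 7.95 and 7.68 in CD11A- against 8.82 and 7.17 in CD11A+ HSCs. Its day A difference of 0.87 was the largest of the 39, and its day B difference was -0.51. The dimmer Bysl probeset, however, had 0.76 on day A and 0.49 on day B. The remaining small-subunit factors, Wdr43, Nop14, Utp20 and Tsr1, had mean differences from -0.06 to 0.17.

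On its brightest probeset, every one of the 11 measured large-subunit factors was higher in CD11A+ HSCs on day A, by 0.06 to 0.60. On day B 4 of the 11 were higher, and differences ran from -0.43 to 0.32. Nip7, which binds pre-ribosomes, was one of the most even genes among CD11A- arrays, with 9.96, 10.00 and 9.97. It had 10.16 and 10.29 in CD11A+ HSCs. The groups did not overlap, and the difference of 0.25 (standard error 0.17) had p = 0.1 in a two-sided exact permutation test, the smallest that 3 against 2 arrays allow. Its other probeset also had no overlap, with 7.12, 6.80 and 7.02 against 7.28 and 7.20. Nop16, a nucleolar factor known to follow Myc, had 7.94, 8.28 and 8.10 in CD11A- and 8.40 and 8.15 in CD11A+ HSCs. It was higher on both days, by 0.12 and 0.05, less than its CD11A- range of 0.34. The other probeset had a mean difference of -0.20 and was lower on both days, by -0.63 on day A and -0.04 on day B.

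Pes1, Bop1 and Wdr12, form 1 complex needed for large-subunit RNA. On their brightest probesets, the differences on day A were 0.38, 0.56 and 0.25, and on day B -0.34, -0.32 and -0.10. Those probesets were all highest in CD11A+ replicate 1. The other probeset of Pes1 had -0.69 on day A and 0.05 on day B, and the second of Wdr12 had -0.12 and -0.38, so the direction on day A depended on the probeset in both genes. Nop2, an RNA methyltransferase with an E-box before its start, had 8.69, 8.81 and 8.22 in CD11A- and 9.41 and 7.84 in CD11A+ HSCs, with the CD11A+ arrays again as its extremes. Gnl3, nucleostemin, was higher on both days by 0.13 and 0.10, and Ddx18, an RNA helicase, had CD11A- arrays within 0.01 of each other and a difference of 0.03.

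Ddx21, a helicase that acts in both RNA polymerase I transcription and processing, had levels of 9.57, 8.35 and 9.48 in CD11A- and of 8.70 and 9.76 in CD11A+ HSCs. Both day A arrays were below the other 3. Within days it was higher in CD11A+ HSCs by 0.35 and 0.28, while the pooled difference was 0.10 (standard error 0.49), which was -0.43 without CD11A+ replicate 2. Its dimmer probeset had 0.91 on day A and -0.02 on day B.

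Odc1 and Nme1 are classical Myc targets outside the ribosome. Odc1, the rate-limiting enzyme of polyamine synthesis, had 11.28, 11.17 and 11.12 in CD11A- and 11.43 and 11.56 in CD11A+ HSCs. The 2 groups again did not overlap, with a difference of 0.31 (standard error 0.17, adjusted p = 1.00 from limma), an exact two-sided permutation p of 0.1, and 0.26 on day A and 0.44 on day B. Its 2 other probesets had 0.24 and 0.32, the first without overlap and the second with. Nme1, a nucleoside diphosphate kinase, had 10.68, 10.41 and 10.63 in CD11A- and 10.98 and 10.55 in CD11A+ HSCs. It was higher by 0.57 on day A and lower by 0.08 on day B on the brightest probeset, and higher by 0.86 and 0.28 on the other. The brightest probesets of Odc1 and Nme1 carry the suffix _x_at, which marks probes that can also bind other transcripts.

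**Figure D3:**
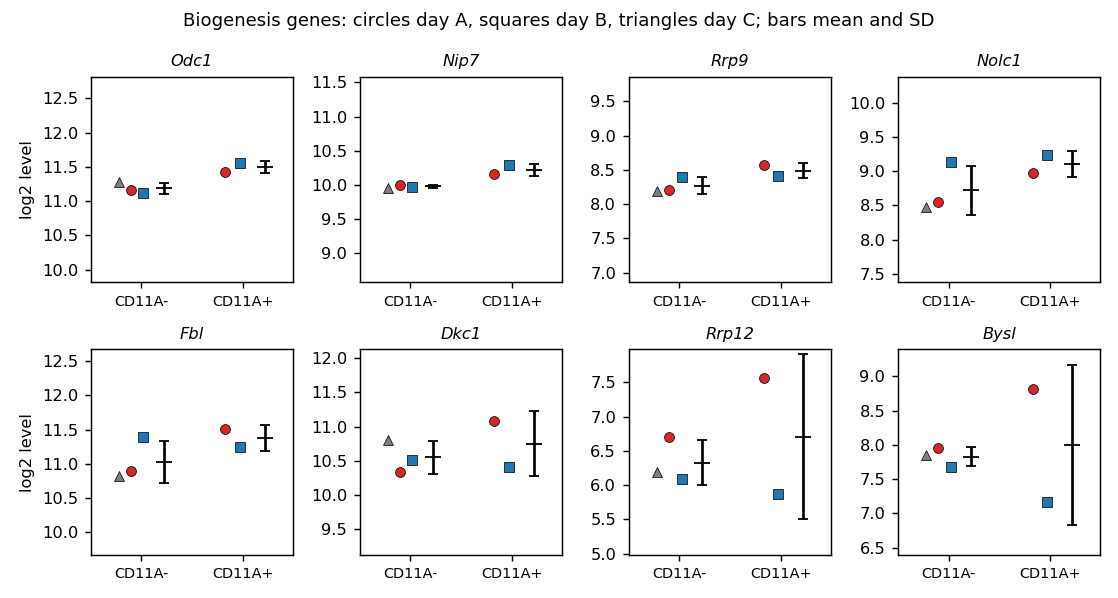
Log2 levels of 8 genes outside the Myc network on each array, by subfraction, with circles for sort day A, squares for day B and triangles for day C, and bars for the mean and SD (n = 3 CD11A-, n = 2 CD11A+). In Odc1, Nip7 and Rrp9 both CD11A+ arrays lie above every CD11A- array, and in Rrp12 and Bysl the CD11A+ arrays are the highest and the lowest of the 5.

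Odc1, Nip7 and Rrp9 were the only genes of the 39 in which the 2 CD11A+ arrays both exceeded all CD11A- arrays, where 8.56% of all named genes did so. In none of the 39 did both lie below, where 10.4% of all named genes did. A count of 3 of 39 is thus near the share of all genes. With the mean of a gene's probesets 4 genes lay above and 1 below, where 9.27% and 9.90% of all named genes did so. With fewer arrays, groups overlap less often in all genes. Without CD11A- replicate 2, 6 of the 39 lay above, against 14.0% of all named genes, and without CD11A- replicate 3 it was 7, against 15.3%. Without CD11A+ replicate 1, 10 genes lay above and 12 below, against 23.1% and 31.6% of all named genes. Without CD11A+ replicate 2, 21 lay above and 5 below, against 31.1% and 27.1%. Probesets of 1 gene often differed. Of the 43 other probesets of the 27 genes that had more than 1, 18 had a difference in the other direction.

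**Figure D4:**
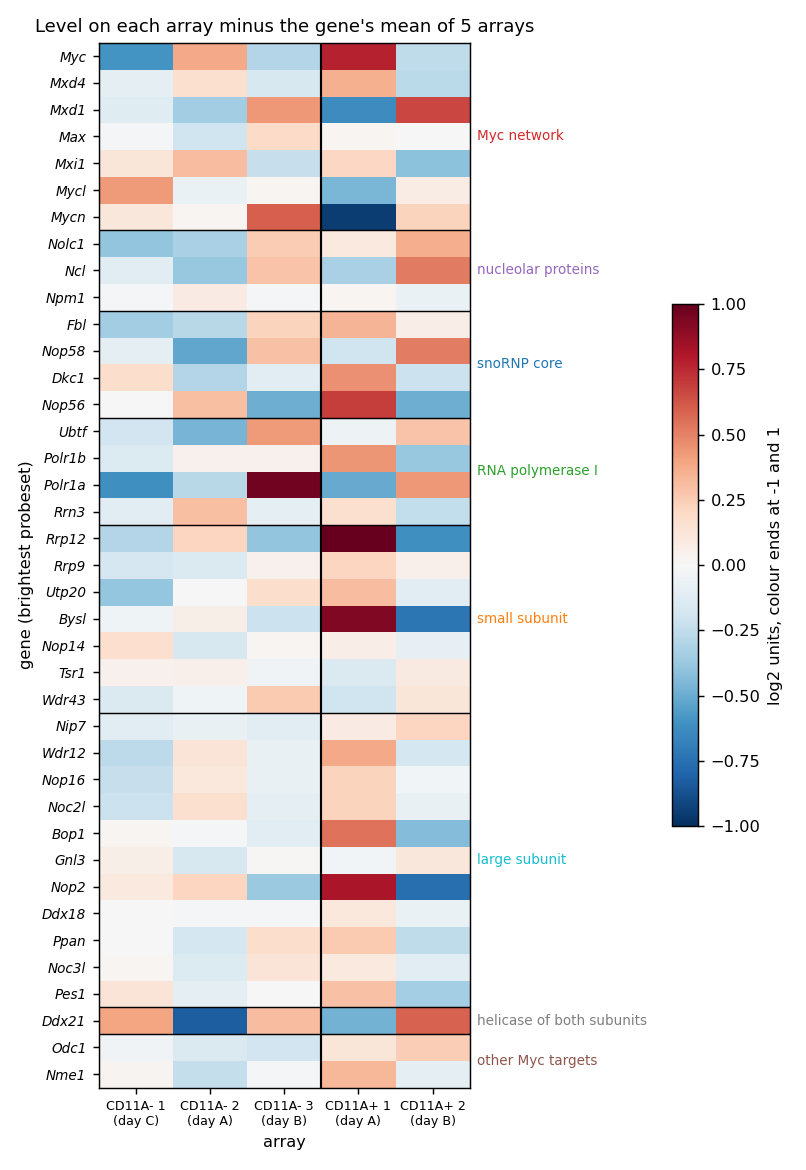
Log2 level on each array minus the mean of the 5 arrays, for the 39 genes in rows, ordered by role and by mean difference, with CD11A- arrays left and CD11A+ arrays right of the line. CD11A+ replicate 1 holds the highest level of 19 genes, most of them small-subunit and large-subunit factors, and CD11A+ replicate 2 the lowest of 12.

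The other genes of these pathways were compared as lists. Of 94 further biogenesis factors, all of them measured, 68 were higher in CD11A+ HSCs on day A, against 51.1% of all named genes. On day B 64 were lower, against 53.6%, and the medians were 0.21 on day A and -0.12 on day B. The 32 measured genes outside the Myc network had medians of 0.31 and -0.10. Dhx37, an RNA helicase of the small subunit, led this list, with 5.30, 5.32 and 5.46 in CD11A- and 6.51 and 5.46 in CD11A+ HSCs. Its excess was thus seen on day A alone. Sdad1, a large-subunit factor, followed with a difference of 0.59 and with 0.72 on day A and 0.58 on day B. None of the 94 passed an adjusted or an unadjusted p of 0.05 in limma.

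The ribosomal proteins themselves, which the assembly factors put in place, were lower in CD11A+ HSCs in most cases. Of 79 listed, 44 were measured by a probeset of their own. Their mean was lower in CD11A+ HSCs for 36 and higher for 8, with a median of -0.12, where 51.4% of all named genes and 60.1% of those with a mean of 8 or more were lower. On both days 31 of the 44 were lower, against 28.0% of all named genes and 2191 of the 6498 with a mean of 8 or more. The median level of the 44 was 13.35. Both CD11A+ arrays lay below every CD11A- array for 7 of the 44, against 10.4% of all named genes, and above for none, against 8.56%. The medians were -0.06 on day A and -0.16 on day B, so that on day B the ribosomal proteins and the biogenesis genes were on the same side, and none passed an adjusted or unadjusted p of 0.05 in limma. The largest difference in size, 0.58 (standard error 0.87), was that of Rpl27a, which was higher on both days, by 0.32 and 0.25. Its levels were 7.57, 7.36 and 9.55 in CD11A- and 7.68 and 9.80 in CD11A+ HSCs. Both arrays of day B thus lay well above all others, and the pooled difference exceeded that of either day. Rpl37a followed, with -0.20 on day A and -0.95 on day B, and Rps27 had the largest in the small subunit, with -0.70 and -0.18.

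Of 49 further targets of Myc, 44 were measured, and 38 were higher in CD11A+ HSCs on day A, against 51.1% of all named genes, while 23 were lower on day B, against 53.6%. Slc7a5, a transporter of large neutral amino acids, had 7.54, 7.09 and 8.14 in CD11A- and 8.46 and 8.50 in CD11A+ HSCs, so that both CD11A+ arrays exceeded all others. The same held for 8 of the 44 in all, against 8.56% of all named genes. In 2 of the 44 both CD11A+ arrays lay below, against 10.4%. Ctps, an enzyme of CTP synthesis, had 9.69, 9.48 and 9.51 against 10.57 and 9.83. Neither passed the adjusted threshold. At an unadjusted p under 0.05, 4 of the 44 were higher and 1 was lower, where 1.48% of all named genes were higher and 3.58% lower.

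Other transcripts differed between these arrays by far more than the ribosome genes. Of 12 mitosis genes listed, 11 were measured, and all 11 were higher in CD11A+ HSCs on both days, against 25.3% of all named genes. Their mean log2 level was 6.84, 7.31 and 5.67 in CD11A- replicates 1 to 3 and 9.40 and 6.56 in CD11A+ replicates 1 and 2. CD11A+ replicate 1, the array that was highest for 19 of the 39 genes, thus had the highest mitosis level too. On day B the mitosis genes were higher in CD11A+ HSCs at a median of 0.79, while the 39 genes had -0.10. Granulocyte genes, 11 of 12 measured, averaged 5.65 to 7.91 in CD11A- HSCs, and 9.09 and 6.10 in CD11A+ HSCs, and both highest levels were those of day A. They did not move together: 8 of the 11 had a higher mean in CD11A+ HSCs and 3 a lower one. Elane was lower by 0.48 and 0.43 on days A and B, and Prtn3 by 0.54 and 0.77. Macrophage and monocyte genes, 8 of 8, averaged 5.95 to 6.90 in CD11A- HSCs, and 7.63 and 7.07 in CD11A+ HSCs. Genes associated with HSCs, 9 of 10, averaged 10.44 to 10.78 in CD11A- HSCs, and 8.99 and 10.21 in CD11A+ HSCs, so CD11A+ replicate 1 was lowest there. Megakaryocyte genes, 5 of 5, averaged 6.95, 7.48 and 7.61 in CD11A- replicates 1 to 3, and 8.42 and 7.60 in CD11A+ replicates 1 and 2, with CD11A+ replicate 1 again highest. Erythroid genes, 5 of 7, averaged 6.61 to 6.71 in CD11A- HSCs, and 6.95 and 6.77 in CD11A+ HSCs. B-lymphoid genes averaged 5.45 to 6.08 and T and NK genes 4.71 to 4.88 over all arrays. The part of mitotic, granulocyte, macrophage or megakaryocyte RNA in the differences of the 39 genes was not tested.

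**Figure D5:**
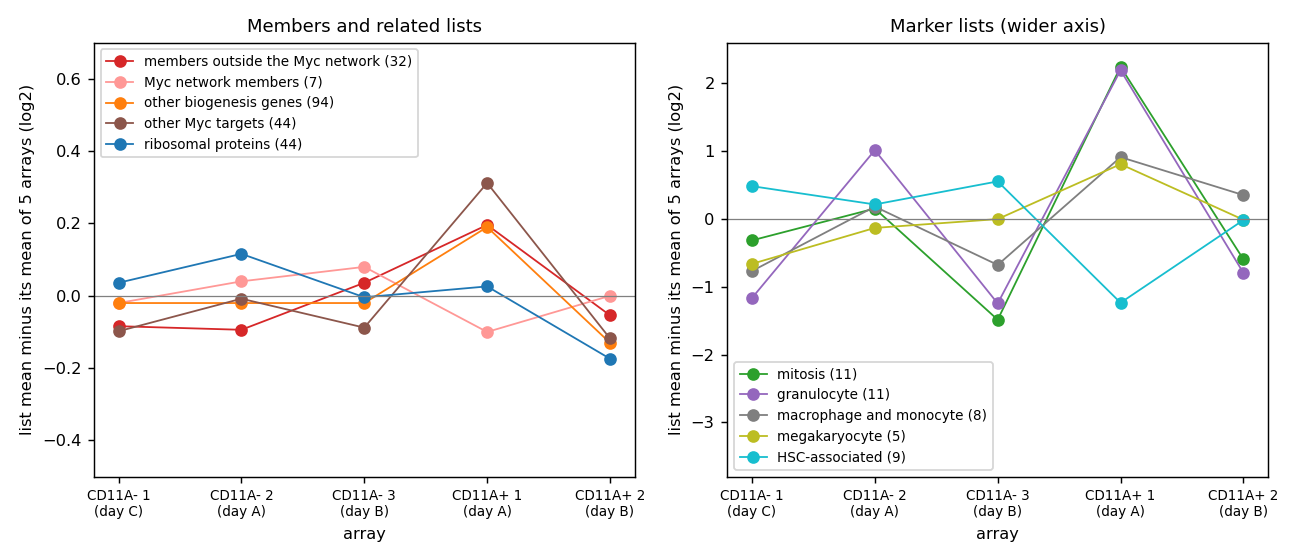
Mean log2 level of each list on each array minus the mean of that list over the 5 arrays, with the number of measured genes in brackets. Left, the 32 genes outside the Myc network, the further biogenesis genes and the further Myc targets have their highest mean in CD11A+ replicate 1 and ribosomal proteins do not; right, on a wider axis, mitosis, granulocyte and megakaryocyte genes are also highest in that array and HSC-associated genes lowest.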

How the data were processed

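RNA of sorted CD11A- and CD11A+ HSCs was amplified in 2 cycles and hybridised to Affymetrix whole-genome mouse arrays. The values deposited by the authors are log2 levels for each probeset, and the submitters' processing notes name RMA, with no version. The supplement also describes normalisation on the Gene Expression Commons, and which arrays were normalised together is not given in the sources used here. The 2 deposited tables held the same values for the 5 arrays (0 differed). The larger one has 40 other columns, of samples outside this series, which were not used. Because the values are already summarised, signal over background per probe was not at hand, and precision is limited by the number of arrays.

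Of 45101 probesets, 64 controls were left out. The values were fitted as deposited with limma 3.58.1 in R 4.3.3 (lmFit, eBayes, no block, 3 residual degrees of freedom), CD11A+ minus CD11A-, with Benjamini-Hochberg adjustment over 45037 probesets, and the script was tested on simulated data. Single genes were also tested by a two-sided exact permutation test over the 10 regroupings of the arrays. This test and the main fit both ignore the pairing of arrays by sort day, so their p-values do not account for it. Tables were made in Python 3.11.15. Gene names came from the platform annotation: 34945 probesets name 1 gene, 932 several and 9160 none, and 34741 of the first were found in RefSeq by gene number. Named were all Myc network genes, the 2 largest mean differences per other role, genes whose groups did not overlap, and the ends of ranges. The genes and lists were chosen with earlier results of these data known. Itgal served as the check of the label, and lists of related and marker genes as comparisons.

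Replicate numbers cross the sort days. Deviations from the group means correlated at 0.56 and 0.59 for arrays of the same day, and at 0.12 and -0.56 for arrays of the same number, and since centring makes the 2 CD11A+ arrays mirror images, these values are not independent. Sort days rest on the labels. Nothing says whether replicates share mice, so p-values measure the spread between these arrays, which may be technical. Alternatives were a block for sort day (fixed, or random by duplicateCorrelation), a block for replicate number, the other table, array weights, quantile normalisation, median centring, a trended prior, keeping probesets with a log2 value of 6 or more on at least 2 arrays, the mean of a gene's probesets, an unadjusted threshold, leaving out each array, and the unpaired test that a legend of the study names for another comparison, called the methods' t-test.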

Additional observations from a re-analysis of the deposited data

Results flagged for a closer look

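Several groups of genes had median differences between CD11A+ and CD11A- HSCs of opposite sign on the 2 sort days. All 39 measured genes together had 0.25 on day A and -0.10 on day B, and the 32 outside the Myc network 0.31 and -0.10. By role within the set, the 4 snoRNP proteins had 0.50 and -0.05, and the 4 RNA polymerase I genes 0.13 and -0.29. The small-subunit factors had 0.30 and -0.14, and the large-subunit factors 0.24 and -0.10. The difference between the days was not tested, since each day holds 1 array of each subfraction, and these groups overlap in their genes and share the same 4 arrays. Over all named genes the medians were 0.02 and -0.03. With quantile normalisation the 39 genes had 0.28 and -0.04, against 0.02 and -0.01 over all named genes, so that the negative median of day B was smaller.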

How the results depend on the processing

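No gene of the 39 passed an adjusted p of 0.05 in limma under any alternative. Over all 45037 probesets the count past that threshold was 0, and it was also 0 with a replicate block and with a block for sort day, fixed or random. It ran from 0 to 20 when each array was left out, with 20 (15 higher, 5 lower) without CD11A+ replicate 2. At an unadjusted p under 0.05 it was 1917 (656 higher, 1261 lower), and by the methods' t-test at its threshold 19 (7 higher, 12 lower), or 0 after Benjamini-Hochberg adjustment. The median difference of the 39 genes, 0.09, was 0.10 with the replicate block, under which 29 genes had the higher mean, and 0.07 with sort day as a fixed block. Same-numbered arrays share only a number, and the block changed no call. Leaving out each array gave -0.04 to 0.24 for the median, 16 to 29 genes with the higher mean, and 3 to 26 without overlap between the groups, the ends coming from the CD11A+ arrays. The count without overlap was 5 (4 higher, 1 lower) with the mean of a gene's probesets. The day medians of 0.25 and -0.10 were 0.28 and -0.04 with quantile normalisation and 0.29 and -0.10 with median centring. Changes of sign were followed for only 20 of the 39 genes, and Bysl, Nop2 and Bop1, for instance, were not among them. Within the 20, the mean of a gene's probesets turned Mxd4 to -0.02, Ncl to -0.05 and Nop16 to -0.01. Sort day as a fixed block turned Mxd1 to -0.02. Left-out arrays turned the sign of Myc (-0.08 to 0.94), Max (-0.08 to 0.12), Mxd1 (-0.62 to 0.68), Mxd4 (-0.24 to 0.38), Mxi1 (-0.48 to 0.14), Ncl (-0.26 to 0.58), Nop58 (-0.09 to 0.62), Rrn3 (-0.28 to 0.13), Rrp12 (-0.46 to 1.23), Ddx21 (-0.43 to 0.63) and Nme1 (-0.02 to 0.41). The cause was not tested. Mycn (-1.19 to -0.02), Mycl, Nolc1, Fbl, Rrp9, Nip7, Nop16 and Odc1 (0.24 to 0.37) kept their sign when each array was left out, and Ubtf ran from 0 to 0.45. Quantile normalisation, median centring, the intensity trend, array weights and the other table turned no sign among these 20 genes.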

Other observations

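Of 12 further genes of the Myc network, all measured, 9 had a lower mean in CD11A+ HSCs, against 51.4% of all named genes, and 3 a higher one, with a median of -0.11. Mga, a large Max-binding repressor, had log2 levels of 9.76, 9.66 and 9.04 in CD11A- and of 8.76 and 8.95 in CD11A+ HSCs, so that both CD11A+ arrays lay below every CD11A- array, as in 10.4% of all named genes. Mxd3, a Max partner known from dividing cells, had 5.94, 6.47 and 5.90 against 7.75 and 6.10, and its excess was mainly that of CD11A+ replicate 1. Neither passed the adjusted threshold in limma.

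Further subunits and factors of RNA polymerases I and III, 29 of 30 measured, had a median of -0.03, with 13 higher and 16 lower. Polr3b and Polr3a, the catalytic core of RNA polymerase III, had the largest differences, -0.50 and -0.46, and were lower in CD11A+ HSCs on both days. On day B 11 genes of this list were higher and 18 lower. Its RNA polymerase I subunits then had 0.24 (Polr1c), -0.08 (Polr1d), 0.22 (Polr1e), -0.18 (Znrd1), 0.30 (Twistnb) and 0.35 (Cd3eap). Genes linked to nucleolar stress and p53, 13 of 16 measured, had a median of -0.11. On day A 7 of the 13 were higher, with a median of 0.07, and on day B 11 were lower, with a median of -0.09, where 53.6% of all named genes were lower. The mean was higher in CD11A+ HSCs for 6 of the 13 and lower for 7. Gata1 had the largest difference, 0.82, with 1.80 on day A and -0.37 on day B. Ccng1, a p53 target, had 11.24, 11.13 and 10.96 in CD11A- and 10.54 and 10.68 in CD11A+ HSCs. Both CD11A+ arrays lay below every CD11A- array, as in 10.4% of all named genes.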
